A study of Rattus norvegicus with 8 samples.

Results

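Aldo-keto reductases are soluble enzymes that use NADPH to reduce carbonyl groups on steroids, sugars and reactive aldehydes. In liver they inactivate steroid hormones, carry out a step of bile acid synthesis, and clear aldehydes formed from lipids and from foreign compounds. The 9 genes described here were Akr1c1, Akr1c2, Akr1c13 and Akr1c14 of the hydroxysteroid dehydrogenase subfamily, the steroid reductase gene Akr1d1, and the aldehyde reductase genes Akr1b7, Akr7a2, Akr7a3 and Akr1a1. They were taken by gene name, because Akr1c1 and Akr1c13 stood among the genes of smallest p between exposed and control offspring. All 9 had a probe that was kept, out of 10004 named genes with a kept probe, and each was represented by 1 probe. The probe of Akr1c13 is named here by its RefSeq accession, since the gene table gives Akr1c12 as an older name of Akr1c13 and Akr1c13 as an older name of Akr1c12.

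The measurements are of liver RNA from adult male Sprague-Dawley rats aged 78 to 86 days, on 8 two-colour Agilent arrays. The AhR group (4 arrays) came from dams given a mixture of aryl hydrocarbon receptor agonists (non-ortho polychlorinated biphenyls, chlorinated dioxins and chlorinated furans) at 1.8 ng of dioxin toxic equivalents per kg per day, and the Control group (4 arrays) from dams given corn oil alone. Offspring of both groups stayed with their birth mothers, and exposure through the dam ran from gestation day 0 to postnatal day 20. Each array held RNA pooled from 2 rats, so any difference between 2 rats of a pool is averaged out. The labels do not say whether pools share a litter, so the spread between arrays is a spread between pools. Liver RNA carried Cy5 and a reference RNA of 14 rat cell lines carried Cy3 on every array, with no dye swap, and values are log2 ratios of Cy5 over Cy3 unless said otherwise.

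The aryl hydrocarbon receptor (AhR) is a transcription factor that binds dioxin-like compounds and switches on detoxifying enzymes, and the comparison asks what remained in adult liver after exposure early in life. Across all 17859 kept probes limma called 0 at an adjusted p of 0.05 (0.00% of those tested), and 288 (1.61%) had an unadjusted p under 0.05. Arrays had median Cy5 spot signals of 159 to 232 units, where the background was 71.0 to 76.0 units. All 16 hepatocyte markers were measured, with a median difference of 0.02 between AhR and Control. The scanner software marked all 9 reductase probes as well above background in both channels on all 8 arrays, and no kept probe was saturated in Cy5. Because the family was chosen from this contrast, the group differences of its members are given as a description, with standard errors (SE) and without a test.

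Among the hydroxysteroid dehydrogenases of the Akr1c subfamily, Akr1c1, Akr1c2 and Akr1c13 had lower means in AhR livers, and Akr1c14 had a higher mean. Akr1c1 carries Akr1c6 and Hsd17b5 as older names, and the mouse enzyme of that name interconverts androgens at the 17-beta position. Akr1c1 had log2 ratios of -0.28, -0.16, 0.02 and -0.40 on AhR arrays 1 to 4, against 0.68, 1.00, 0.67 and 0.10 on Control arrays 1 to 4. All 4 AhR arrays lay below all 4 Control arrays, although the highest AhR array and Control array 4 were close to each other. The means were -0.21 ± 0.18 in AhR and 0.61 ± 0.37 in Control (SD, n = 4 each), a difference of -0.82 (SE 0.17), or 0.566-fold. By limma's p it was rank 1 of 10004 named genes. Akr1c1 and Akr1c13 were the 2 of the 9 members among the 162 named genes (1.62%) with an unadjusted p under 0.05, and that is what chose the family, so nothing is read from it. Every AhR array lay below every Control array in 57 named genes (0.570%), with 1 member among them, Akr1c1, and the reverse held in 63 (0.630%), with 0 members. In bulk liver RNA, fewer cells of a type and less RNA per cell cannot be told apart. Without Control array 4 the difference was -0.99, and without Control array 2 it was -0.69. The arrays stood in 2 rows on 1 slide, with 2 arrays of each group in each, and the difference was -0.96 within row 1 and -0.68 within row 2.

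**Figure D1:**
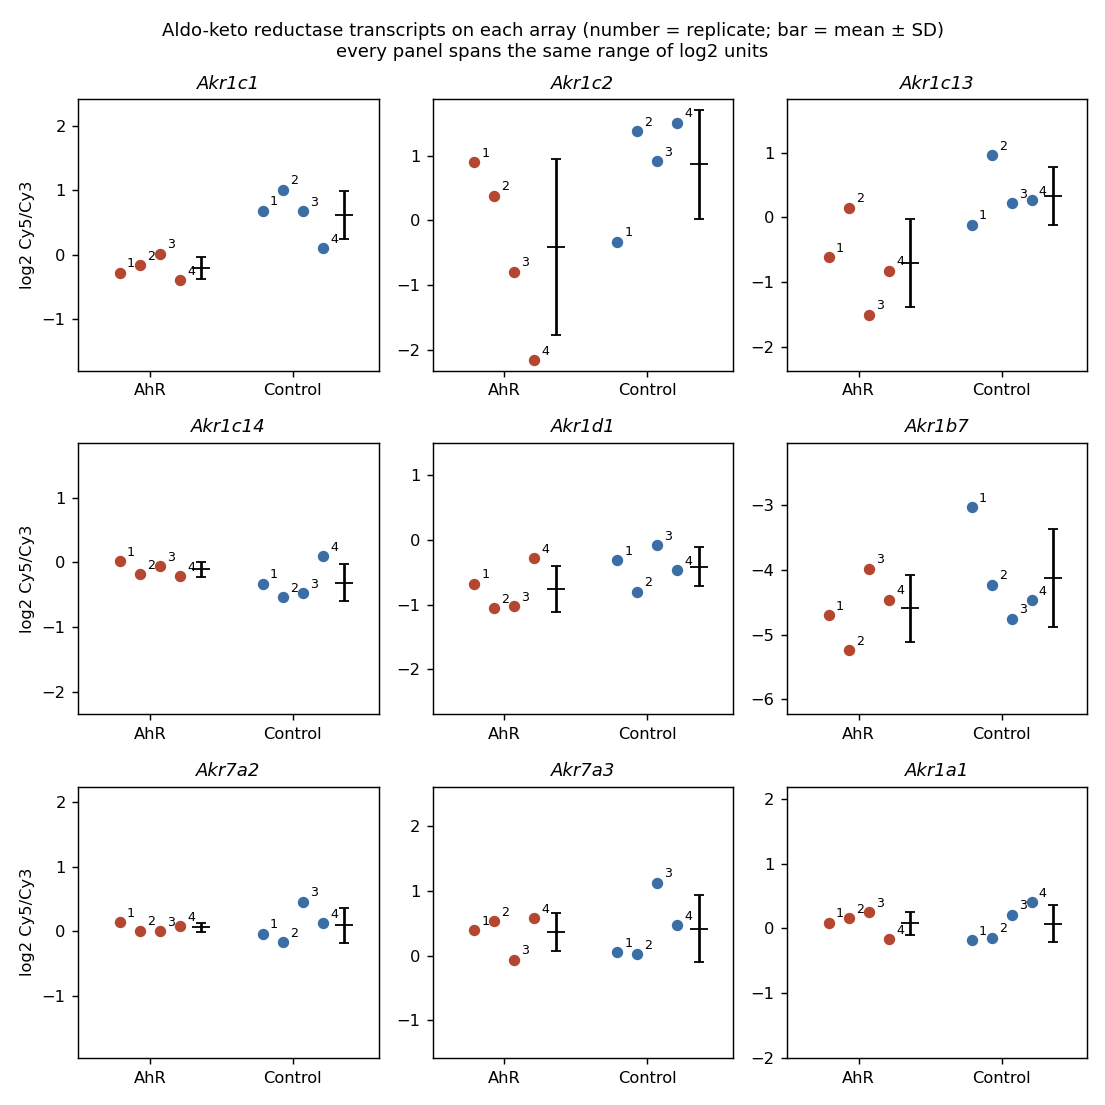
Log2 Cy5/Cy3 (vertical axis) of the 9 reductase genes on 4 AhR arrays (red, left) and 4 Control arrays (blue, right); numbers are replicate numbers and the black bar is the mean ± SD. All panels span the same number of log2 units: Akr1c1 separates the groups, Akr1c2 spreads from -2.16 to 1.51, and Akr7a2 lies within -0.17 to 0.46.

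Akr1c13, another member of the subfamily, had log2 ratios of -0.62, 0.15, -1.51 and -0.83 on AhR arrays 1 to 4, against -0.12, 0.96, 0.21 and 0.26 on Control arrays 1 to 4. AhR array 2 lay above Control array 1, so the groups overlapped. The means were -0.70 ± 0.68 in AhR and 0.33 ± 0.45 in Control (SD, n = 4 each), a difference of -1.03 (SE 0.32), or 0.489-fold. Akr1c13 ranked 18 of 10004 by p. Its difference was -0.39 (SE 0.31) within row 1 of the slide and -1.67 (SE 0.33) within row 2. The rows held different pools, so position and pools cannot be told apart. The difference was -0.76 without AhR array 3 and -1.31 without AhR array 2.

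Akr1c2 had the largest mean difference and also by far the largest spread of the 9 genes. An older name of Akr1c2 is Akr1c21, which in mouse is a 3(17)-alpha-hydroxysteroid dehydrogenase. Its log2 ratios were 0.90, 0.38, -0.79 and -2.16 on AhR arrays 1 to 4, against -0.33, 1.38, 0.91 and 1.51 on Control arrays 1 to 4. AhR array 1 was level with Control array 3, AhR array 4 was lower than any other array, and Control array 1 was low for its group. The uncorrected Cy5 brightness of the probe was 16218, 20415, 5815 and 1708 units on the AhR arrays and 7149, 21922, 15846 and 28540 units on the Control arrays, so AhR array 4 was lowest there too. The means were -0.42 ± 1.36 in AhR and 0.87 ± 0.84 in Control (SD, n = 4 each), a difference of -1.29 (SE 0.61). The highest AhR array was 8.38-fold above the lowest, and the highest Control array 3.59-fold above the lowest. Without AhR array 4 the difference was -0.71, and without AhR array 1 it was -1.73. By p it was rank 196 of 10004.

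Akr1c14, known as Akr1c9 in older usage, encodes the rat liver 3-alpha-hydroxysteroid dehydrogenase, which reduces dihydrosteroids and binds bile acids. Unlike Akr1c1, Akr1c2 and Akr1c13 it had a higher mean in AhR. Its log2 ratios were 0.02, -0.18, -0.06 and -0.21 on AhR arrays 1 to 4, against -0.33, -0.54, -0.48 and 0.10 on Control arrays 1 to 4. The AhR arrays lay close together and above 3 of the Control arrays, while Control array 4 was higher than any AhR array. The means were -0.11 ± 0.11 in AhR and -0.31 ± 0.29 in Control (SD, n = 4 each), a difference of 0.21 (SE 0.14). Leaving out Control array 4 gave 0.34, and leaving out Control array 2 gave 0.13.

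The 4 Akr1c genes lie in 1 cluster on chromosome 17, where the RefSeq gene table places Akr1c2, Akr1c1, AKR1C3l1, Akr1c12l1, Akr1c13, Akr1c19, Akr1c12, Akr1c3, Akr1c14 and Akr1c15 in this order with no other protein-coding gene between them. All 10 had a kept probe. Mean ratios were lower in AhR for 7 of the 10 and higher for 3, where 50.5% of all named genes had a lower mean. The cluster holds the genes that chose the family, so nothing is read from this count. Akr1c12l1, beside Akr1c13, had 0.05 ± 0.42 in AhR and 0.52 ± 0.07 in Control (SD, n = 4 each), a difference of -0.47 (SE 0.18). Akr1c12 differed by -0.35 (SE 0.17), Akr1c19 by -0.16 (SE 0.19) and Akr1c3 by -0.05 (SE 0.20). AKR1C3l1, between Akr1c1 and Akr1c12l1, differed by 0.42 (SE 0.37) and Akr1c15 by 0.13 (SE 0.16). The sign of Akr1c3 turned to 0.03 with median centring, and AKR1C3l1 was at 0.92 with Agilent processed signals. The AKR1C3l1 probe was dim, with an uncorrected Cy5 brightness of 96 to 304 units against a background of 71.0 to 76.0 units. Genes of the cluster resemble each other in sequence, the probe sequences are not used here, and binding of a probe to RNA of a neighbouring gene was not tested.

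**Figure D2:**
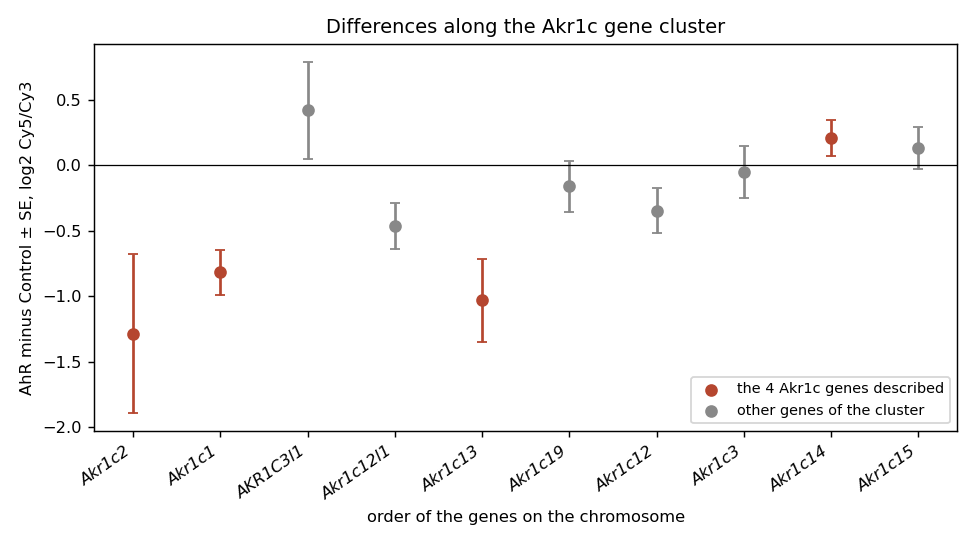
Difference AhR minus Control in log2 Cy5/Cy3 (vertical axis, bars are SE, 4 arrays a group) for the 10 genes of the Akr1c cluster in chromosome order (horizontal axis, not to scale); red marks the 4 genes described in full and grey the others. Akr1c2, Akr1c1 and Akr1c13 lie lowest, at -1.29, -0.82 and -1.03, and AKR1C3l1, which sits among them and has a dim probe, lies highest at 0.42.

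The promoters of Akr1c2 and Akr1c13 are shown because the exposure was to AhR agonists, whose receptor binds a dioxin response element with the core GCGTG. RefSeq sequence of build GRCr8 was at hand for 7 of the 9 genes. It was missing for Akr1c1 and Akr1d1, whose promoters were not searched. The 250 bases before the start are printed 5′ to 3′ on the gene's own strand, with motif matches in capitals. Akr7a3 is shown beside them as a gene with a match.
Akr1c2 promoter, chr17:70717881-70718130, minus strand: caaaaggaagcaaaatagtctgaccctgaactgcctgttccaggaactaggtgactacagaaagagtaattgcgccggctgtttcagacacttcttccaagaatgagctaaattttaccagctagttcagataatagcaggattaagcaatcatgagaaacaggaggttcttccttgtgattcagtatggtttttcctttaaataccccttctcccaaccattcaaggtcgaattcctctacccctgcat
Akr1c13 promoter, chr17:70894386-70894635, plus strand: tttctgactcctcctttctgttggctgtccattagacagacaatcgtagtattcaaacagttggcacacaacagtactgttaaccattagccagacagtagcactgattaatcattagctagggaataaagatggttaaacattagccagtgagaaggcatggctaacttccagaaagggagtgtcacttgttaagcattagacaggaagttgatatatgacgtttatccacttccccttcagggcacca
Akr7a3 promoter, chr5:156876471-156876720, plus strand: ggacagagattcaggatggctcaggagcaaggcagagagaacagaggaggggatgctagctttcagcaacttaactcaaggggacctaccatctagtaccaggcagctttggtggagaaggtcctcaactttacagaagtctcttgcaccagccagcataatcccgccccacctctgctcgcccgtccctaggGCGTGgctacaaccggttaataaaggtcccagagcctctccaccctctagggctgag

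Both strands were searched for GCGTG, for the antioxidant response element core TGACNNNGC, for the D-box TTANGTAA and for TATAAA, and no 2 matches overlapped. The core GCGTG stood in the windows of Akr7a2, from base -27 to -23, and Akr7a3, from base -57 to -53, and in none of the other 5 windows. It is found in 25.9% of 33469 promoters of this length. No window of the 7 held the other letters, which are found in 10.1%, 2.04% and 12.9% of promoters. A match is a run of letters, and binding of the receptor was not measured.

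Akr1d1 encodes the 5-beta-reductase that turns steroid precursors into the bent form needed for bile acids, and the product passes to 3-alpha-hydroxysteroid dehydrogenases. Its log2 ratios were -0.68, -1.05, -1.02 and -0.29 on AhR arrays 1 to 4, against -0.31, -0.80, -0.08 and -0.47 on Control arrays 1 to 4. The groups overlapped, with AhR arrays 2 and 3 the lowest of all. The means were -0.76 ± 0.36 in AhR and -0.42 ± 0.30 in Control (SD, n = 4 each), a difference of -0.34 (SE 0.19), or 0.788-fold. Akr1d1 and Akr1c14, consecutive enzymes of one route, had mean differences of opposite sign. The groups overlapped in both genes, and a pattern along the route was not tested.

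Akr1b7 is a reductase first known from mouse vas deferens, and in mouse adrenal it clears an aldehyde released when cholesterol is cut to make steroids. It was the only member whose liver signal was far below that of the reference RNA, at a mean log2 ratio of -4.36 over the 8 arrays, or 20.5-fold brighter in Cy3. With Agilent processed signals, which have no offset, the mean was -5.73, or 53.2-fold, so the size of this ratio depends on the processing. Its ratios were -4.69, -5.24, -3.98 and -4.46 on AhR arrays 1 to 4, against -3.03, -4.23, -4.75 and -4.47 on Control arrays 1 to 4. Control array 1 stood above the rest and the groups overlapped. The difference was -0.47 (SE 0.35), from means of -4.59 ± 0.52 in AhR and -4.12 ± 0.76 in Control (SD, n = 4 each). Without Control array 1 it was -0.11, and with Agilent processed signals -0.84. Within row 1 of the slide it was -0.96, and within row 2 it was 0.01. Its uncorrected Cy5 brightness was 99.5 to 164 units on AhR arrays and 101 to 257 units on Control arrays, close to the background of 71.0 to 76.0 units.

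The 3 remaining genes encode broad aldehyde reductases and had mean differences near 0. Akr7a3, the aflatoxin aldehyde reductase of rat liver, inducible by antioxidants, had log2 ratios of 0.39, 0.53, -0.06 and 0.58 on AhR arrays 1 to 4, against 0.06, 0.02, 1.13 and 0.47 on Control arrays 1 to 4. Control array 3 was the highest of all, and the difference was -0.06 (SE 0.24), turning to 0.18 without it. Akr7a2, which reduces succinic semialdehyde, had 0.15, 0.01, 0.01 and 0.08 on AhR arrays 1 to 4, against -0.04, -0.17, 0.46 and 0.13 on Control arrays 1 to 4. Its difference was -0.03 (SE 0.13), with AhR arrays inside the Control range. Akr1a1, which in rodents also serves vitamin C synthesis, had 0.08, 0.16, 0.25 and -0.17 on AhR arrays 1 to 4, against -0.19, -0.15, 0.21 and 0.40 on Control arrays 1 to 4. Its difference was 0.01 (SE 0.15), the smallest of the 9. The signs of Akr7a2, Akr7a3 and Akr1a1 changed with the setting, as the plot of differences with other processing or 1 array left out shows.

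**Figure D3:**
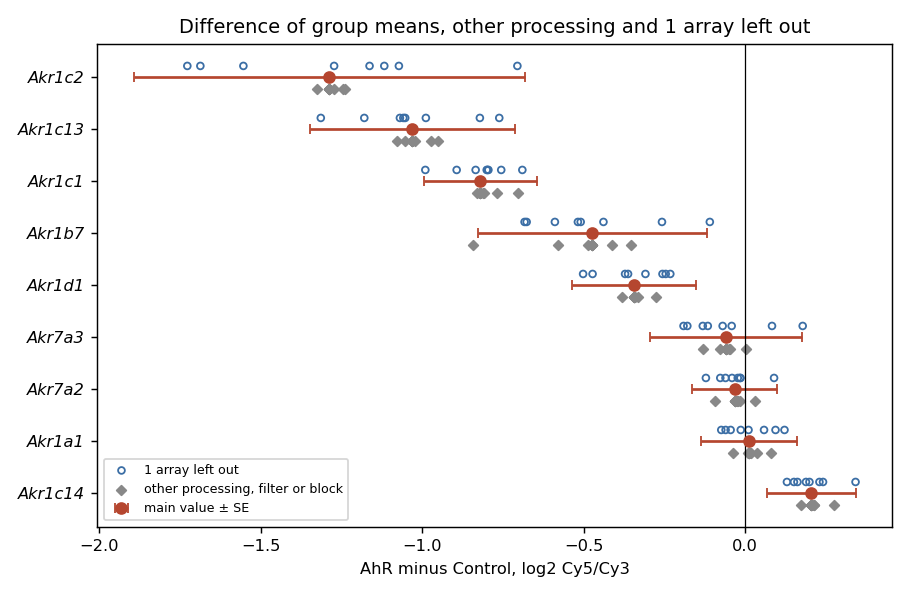
Difference AhR minus Control in log2 Cy5/Cy3 (horizontal axis) for each gene: red points are the main value with its SE, grey diamonds other processing, filters or blocks, and blue circles fits without 1 of the 8 arrays. In these fits, which leave out the values within a slide row, Akr1c1, Akr1c2, Akr1c13, Akr1d1 and Akr1b7 lie below 0, Akr1c14 above 0, and Akr7a2, Akr7a3 and Akr1a1 on both sides.

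Over the 9 members, 7 were lower and 2 higher in mean in AhR livers, and their median difference was -0.34, where the median over all named genes was 0.00. These counts include the genes that chose the family, and nothing is read from them. In Cy3, which held the same RNA on each array, Akr1c1 differed between the groups by 0.11, Akr1c2 by 0.01 and Akr1c13 by 0.06, in quantile-normalized log2 signal. In Cy5 alone they differed by -0.70, -1.25 and -0.97. The Cy3 signal was taken after loess, which uses both channels, and the Cy5 signal had no loess, so the 2 were processed differently.

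The spread of the members between arrays of 1 group was wide. It also enters the p that chose Akr1c1 and Akr1c13, and is given as a description. All 9 genes had a residual SD above the median of all named genes, which was 0.17 (log2), and 4 of the 9 were above the percentile 95 of these genes, 0.38. The median SD was 0.33 over the 9 members, 0.31 over the 8 measured genes of a list of other aldo-keto reductases (0.32 with AKR1C3l1 added) and 0.31 over 33 other genes of steroid metabolism, so wide spread was also seen outside the family. Akr1c2 had an SD of 1.13, the 8th highest of 10004 genes. Akr1b7 followed with 0.65 (rank 75), Akr1c13 with 0.58 (rank 107) and Akr7a3 with 0.42 (rank 353). Akr7a2 had the smallest, 0.20. Spots of 1 probe on 1 array differed by an SD of 0.03 to 0.09 across the 9 genes. The Cy3 signal, taken after loess, differed by an SD of 0.06 to 0.13 within groups. The main processing adds an offset that draws in the ratios of dim probes, and the part of brightness in these ranks was not tested.

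**Figure D4:**
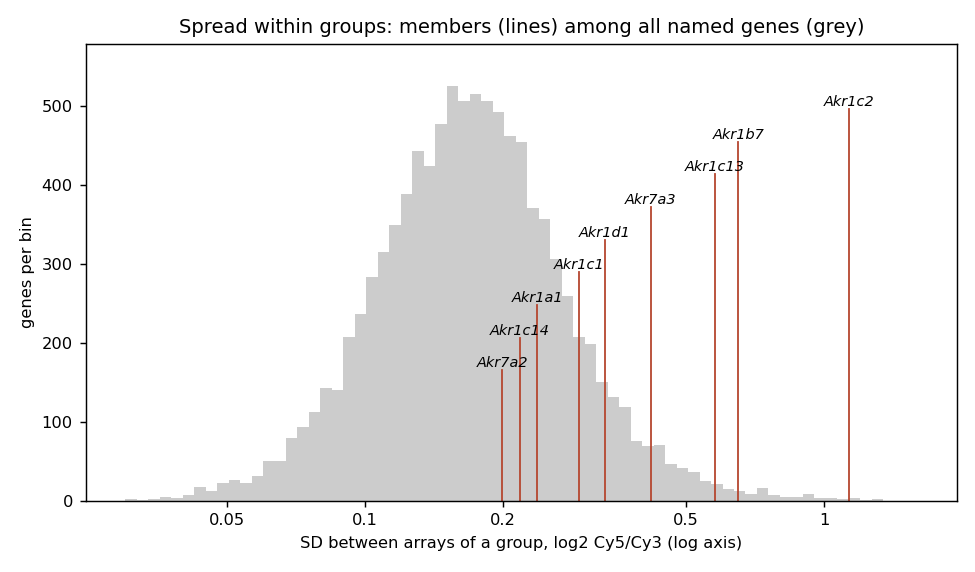
Histogram of the SD between arrays of a group (horizontal axis, log2 Cy5/Cy3 on a log axis) for 10004 named genes, with red lines at the 9 reductase genes. Akr1c2 lies at 1.13, far in the right tail, and Akr7a2 at 0.20, close to the median of 0.17.

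Members were then compared with each other over the arrays. Deviations of each array from its group mean gave 36 pairs of genes, of which 17 had a positive and 19 a negative correlation over the 8 arrays. None passed after adjustment over the 36 pairs (exact permutation within groups, two-sided, lowest adjusted p = 0.670 for Pearson and 0.731 for Spearman), and 1 had an unadjusted p under 0.05. That pair was Akr7a2 and Akr7a3, of the same subfamily, with r = 0.88 (exact permutation p = 0.0278) and rho = 0.71 (exact permutation p = 0.0781). Without Control arrays 2 and 3 their r was 0.63. With processed signals r was 0.84 and with median centring 0.91. With Cy5 alone it was 0.68 (exact permutation p = 0.215), and -0.49 without Control arrays 2 and 3. Akr1c1 and Akr1c2, next to each other in the cluster, had r = -0.01 (exact permutation p = 0.981) and rho = -0.21 (exact permutation p = 0.599). Akr1c2 and Akr1c13 had r = 0.54 (exact permutation p = 0.269) and rho = 0.79 (exact permutation p = 0.0903). Akr1c2 was low on AhR array 4 and Control array 1, and Akr1c13 on AhR array 3 and Control array 1.

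**Figure D5:**
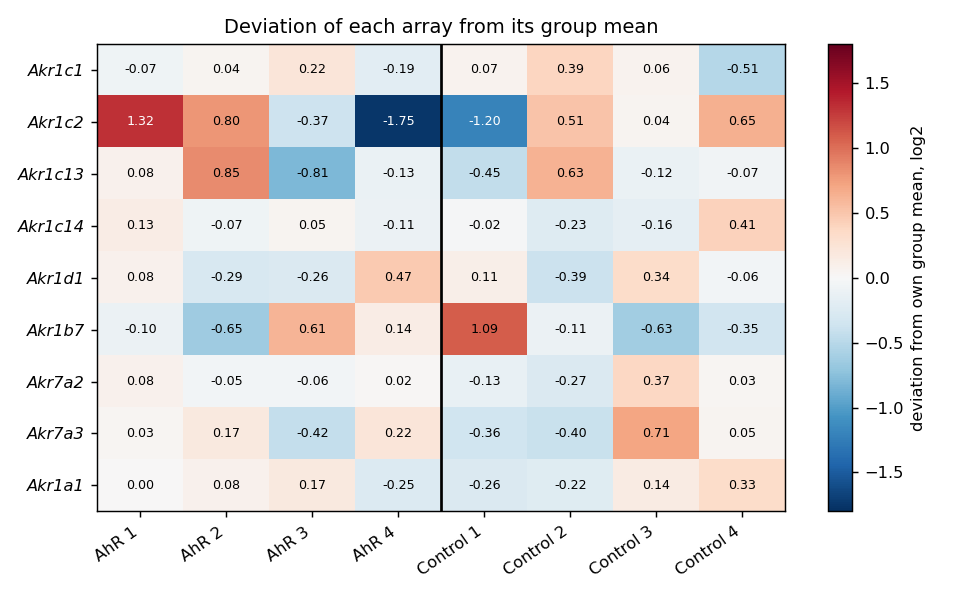
Deviation of each array from its own group mean (colour and printed value, log2 Cy5/Cy3) for the 9 genes (rows) on 4 AhR and 4 Control arrays (columns, parted by the black line). No array is high or low for the whole family: Akr1c2 runs from -1.75 to 1.32, and Akr7a2 from -0.27 to 0.37.

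The members were also set beside Dbp, an output gene of the circadian clock chosen after its values were seen. Dbp had log2 ratios of 1.41, 1.22, 0.08 and -2.21 on AhR arrays 1 to 4, against 0.32, -1.36, -1.52 and -0.42 on Control arrays 1 to 4. Akr1c2 followed the same order as Dbp on the AhR arrays, but not on the Control arrays, where array 1 was the lowest in Akr1c2 and the highest in Dbp. Over 8 deviations the r was 0.58 (exact permutation p = 0.236, adjusted over 9 members p = 0.872) and rho 0.69 (exact permutation p = 0.151, adjusted p = 0.680). Without AhR arrays 1 and 4 it was -0.19, so the relation rests on those arrays.

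Of the other 9995 named genes, those whose deviations were most like Akr1c1 over the 8 arrays were Layn (r = 0.95), Fam32al1 (r = 0.95) and Gpr108 (r = 0.94). The 2 most like Akr1c13 were Alas2, the red cell enzyme of heme synthesis (r = 0.96), and Hba-a1, a haemoglobin chain (r = 0.96). Across the 9 members the best match had an r of 0.95 to 0.99, so a match this close was found for every member in a search of this many genes over 8 arrays. Alas2 had -0.31, -0.02, -1.22 and -0.68 on AhR arrays 1 to 4, against -0.76, 0.52, -0.28 and -0.34 on Control arrays 1 to 4. As for Akr1c13, AhR array 3 was the lowest and Control array 2 the highest. Red cell markers were measured for 4 of 7 genes, and the means of all 4 were lower in AhR (median -0.45). A lower mean was found in 50.5% of all named genes. The groups overlapped in all 4 markers, with differences from -0.32 (SE 0.24) for Slc4a1 to -0.70 (SE 0.43) for Ahsp. Their summed Cy5 brightness ran from 61863 to 185036 units on AhR arrays and from 83584 to 164841 units on Control arrays. This sum is not corrected for the brightness of an array and leaves out Hba-a1, which alone had 186470 to 396098 units. Hba-a2 and Epb42 were among those not measured, and the part of red cells in the Akr1c13 values was not tested.

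Markers of other liver cell types also differed in mean, where 4947 of all 10004 named genes had a higher mean in AhR. Endothelial markers had higher means in AhR for 7 of 7 measured genes out of 10, with summed Cy5 of 10220 to 16199 units in AhR and 8479 to 12270 units in Control. Kupffer cell markers were higher for 9 of 10, with 55956 to 107303 units in AhR and 42110 to 86367 units in Control. Stellate cell and matrix markers were higher for 9 of 10, with 17312 to 32022 units in AhR and 13412 to 21858 units in Control. Among them Dcn, which encodes the matrix protein decorin, differed by 0.33 (SE 0.11), with all 4 AhR arrays above all 4 Control arrays. The same order of arrays held for Tie1 of the endothelial list, at 0.21 (SE 0.10), and for 63 named genes in all (0.630%). Dcn and Tie1 were named after their values were seen. Cholangiocyte markers were higher for 4 of 5 measured genes out of 8, with 1007 to 1786 units in AhR and 854 to 1203 units in Control. Lymphocyte markers went the other way in mean ratio, lower for 5 of 6 measured genes out of 8 (median -0.03). Their summed Cy5 was 1071 to 1457 units in AhR and 937 to 1281 units in Control. None of these marker genes passed limma's adjusted p, and their part in the reductase values was not tested. The sums are not corrected for the brightness of an array, and AhR array 2 was the brightest (median Cy5 of 232 units). Hepatocyte markers summed to 2040980 to 3082970 units in AhR and 2007870 to 2418350 units in Control. Of 7 adrenal cortex genes, the defining Star, Cyp11a1, Cyp11b1, Cyp11b2 and Mc2r were not measured above background on enough arrays.

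Genes of related function come from lists set out beside the family. Of a list of 12 other aldo-keto reductase genes 8 were measured, and 0 passed limma's adjusted p of 0.05, 3 had higher and 5 lower means in AhR, and the median difference was -0.04. The list does not hold AKR1C3l1 of the cluster, and with it 4 of 9 were higher and 5 lower, with a median of -0.03. Akr1c12l1 alone among them had an unadjusted p under 0.05 (limma's adjusted p = 1.00). Akr1c12 was next, and both belong to the cluster.

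Among 33 measured genes of other steroid metabolism, 18 had higher and 15 lower means, with a median of 0.00, and 0 passed the adjusted p or had an unadjusted p under 0.05 (limma). The 2 of smallest p were Hsd17b6, an oxidoreductase that acts on androgen metabolites, and Cyp3a2, a male-typical rat steroid hydroxylase. Hsd17b6 had -0.21 ± 0.28 in AhR and 0.23 ± 0.39 in Control (SD, n = 4 each), a difference of -0.43 (SE 0.20). Cyp3a2 had 0.46 ± 0.44 in AhR and -0.03 ± 0.54 in Control (SD, n = 4 each), a difference of 0.50 (SE 0.27).

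Among 15 genes of bile acid synthesis other than Akr1d1, 12 had lower and 3 higher means, with a median of -0.05 that turned to 0.01 with median centring, and 0 passed either threshold (limma). Baat, which joins bile acids to amino acids, differed by -0.19 (SE 0.13), and Amacr, a racemase of the side chain, by 0.33 (SE 0.24). Among 19 genes of other carbonyl and aldehyde metabolism, 12 were higher and 7 lower in mean, with a median of 0.03, and 0 passed the adjusted p (limma). Aldh3a2, the fatty aldehyde dehydrogenase, was the 1 gene with an unadjusted p under 0.05, at 0.77 ± 0.39 in AhR and 0.37 ± 0.18 in Control (SD, n = 4 each), a difference of 0.40 (SE 0.18). Dhrs4, a carbonyl reductase, differed by 0.15 (SE 0.10).

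Among 19 NRF2 targets of the antioxidant response, 8 had higher and 11 lower means, with a median of -0.02, and 0 passed either threshold (limma). That response includes Akr7a3 in rat liver, but as a member of the family it was not counted among the 19. Gclc, the catalytic subunit for glutathione synthesis, differed by 0.25 (SE 0.12), and Gsta3, a glutathione transferase, by -0.39 (SE 0.19). Among 15 receptors and regulators, 7 were higher and 8 lower, with a median of 0.00, and 0 passed either threshold (limma). Nfe2l2, which encodes NRF2, differed by -0.18 (SE 0.11), and Hnf4a, a hepatocyte transcription factor, by 0.17 (SE 0.11).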

How the data were processed

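The authors deposited median spot and background intensity values from Agilent's scanner software (Feature Extraction, version 10.7.3.1 in the file headers), together with processed signals that the software had background-subtracted and dye-normalized. A second deposited table holds the authors' log2 values. Its columns correlated with the main ratios at 0.990 to 0.994 across probes and had medians of 0.0124 to 0.0386. Its direction is Cy5 over Cy3, and its exact dye correction is not given in the sources used here. The deposited flags of spots (outlier, well above background, saturated) were taken as other per-spot values.

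With limma 3.58.1 (R 4.3.3), normexp with an offset of 50 corrected the background and loess each array, giving control spots and flagged outliers a weight of 0. Replicate spots were averaged, and probes with Cy5 well above background on at least 4 of 8 arrays were kept, 17859 of 30367. RefSeq accessions of the probes, matched to the GRCr8 gene table, named 18004 probes, and a gene was taken at its kept probe of highest mean Cy5. The design predates that build, so coordinates are given only for the RefSeq promoter sequences, and the gene table was used for names and gene order. Groups were compared with limma over all kept probes with Benjamini-Hochberg adjustment, and the fit was tested on simulated data. Alternatives are given in the closing section. All arrays share 1 slide and 1 scan. Named genes were all members, the 2 genes of smallest p in each related list, and the 3 genes most like Akr1c1 and Akr1c13, of which 1 is not reported here. Genes of the cluster, Dbp, Dcn, Tie1 and the red cell genes beyond these were added after their values were seen. The members and gene lists were chosen with earlier results of these data known. The number of arrays limits the precision.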

Additional observations from a re-analysis of the deposited data

How the results depend on the processing

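Limma called 0 probes under all 18 other settings, among them the replicate block (251 probes at an unadjusted p under 0.05) and each array left out, and the count at an unadjusted p under 0.05 ran from 172 with median centring to 818 without Control replicate 4, against 288. It was 505 without AhR replicate 4 and 715 with no filter on dim probes. Between 5 and 8 of the 9 members had lower means in AhR across 20 other settings, against 7. Arrays with the same replicate number stood in the same column of the slide, so the replicate block is also a block by column. Correlations of their deviations were -0.37 to 0.05 over probes, and the labels name nothing else that they share. Under the replicate block the differences of the members were the same by construction, but their SEs moved in both directions. That of Akr1c13 was 0.19 against 0.32, and that of Akr1c2 was 0.63 against 0.61. Each member has 1 kept probe, so an average over probes changes nothing. Akr1c13 was at -0.39 within slide row 1 and -1.67 within slide row 2, and the cause was not tested. The median of the carbonyl and aldehyde genes was -0.0758 in row 1 and 0.141 in row 2, against 0.0326. Medians of the other 5 related lists ran from -0.11 to 0.06, on both sides of 0. Covariation of members was called for 0 pairs with processed signals, median centring or Cy5 alone. In the Cy3 signal taken after loess, a setting added after seeing the data, the members differed by -0.07 to 0.11. Akr1b7 is limited by its Cy5 signal, close to background.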
